A study of Mus musculus with 11 samples.

Results

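Regulator of G protein signalling (RGS) genes and the genes of the receptor activity-modifying proteins (RAMPs) with their partner receptor gene Calcrl were followed across stable NSC34 lines. The 10 genes were Rgs2, Rgs4, Rgs5, Rgs10, Rgs16, Rgs17, Ramp1, Ramp2, Ramp3 and Calcrl, out of 15803 genes measured. They were read from the 76 probe sets whose annotation names exactly 1 of these symbols, out of 179496 probe sets with 1 symbol, and all 10 were measured. Rgs4, Rgs5 and Ramp3 were picked because their values differ strongly between the control lines, so that difference is described for them without a test. The SE printed with it comes from the spread among arrays and takes no account of this choice.

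NSC34 is a mouse line made by fusing neuroblastoma with spinal cord cells, and it has traits of motor neurons. Each line carried a pSUPERIOR vector that expresses a short hairpin RNA, was made by lipofection and was kept as stable clones under puromycin. The 4 shTardbp arrays came from cells whose hairpin targets Tardbp, which encodes TDP-43, an RNA-binding protein, and the 7 control arrays from cells with a hairpin against GFP (4 shGFP arrays) or Renilla luciferase (3 shLuciferase arrays). No group of untransfected cells was analysed here, so every group shares the vector, the selection and the cloning step, and the labels do not tell how many clones or cultures stand behind the arrays of a group. Each p-value is therefore set against the spread among these arrays alone, and that spread may be technical.

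RGS proteins speed up the GTPase activity of G protein alpha subunits of the Gi/o and Gq families and so shorten the signal that runs from a receptor to adenylyl cyclase, ion channels or phospholipase C beta. RAMPs are single-pass membrane proteins that travel with certain receptors to the cell surface and set which ligand they bind. CALCRL, the calcitonin receptor-like receptor, is a receptor for CGRP when it is paired with RAMP1 and for adrenomedullin when it is paired with RAMP2 or RAMP3, and it signals mainly through Gs and cyclic AMP. CGRP is a peptide of motor and sensory neurons, RGS4 is abundant in neurons, and RGS5 is widely used as a marker of pericytes.

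Values are log2 expression, 1 value per gene and array, and serve to compare arrays, not one gene with another. The medians of the arrays lay between 6.82 and 6.92. The 25th percentile of an array's probe sets was 4.46 to 4.57, depending on the array, and no detection calls were used, so a gene under that mark is not shown to be above background. Tardbp itself averaged 8.88 ± 0.0897 (SD, n = 4) on the shTardbp arrays, 9.28 ± 0.146 (SD, n = 4) on shGFP and 9.29 ± 0.0869 (SD, n = 3) on shLuciferase. It was lower than the mean of both controls by a log2 change of -0.40 (SE 0.0722, limma with Benjamini-Hochberg adjusted p = 0.000713), with all 4 shTardbp values under the control values. The shTardbp 2 and shLuciferase 4 arrays stood apart most. On shTardbp 2, 15 genes lay at least 1 log2 unit above the other arrays of the group and 1 below, and on shLuciferase 4 10 lay above and 5 below, against at most 4 above and 1 below on any other array. Values without these arrays are given where they matter. All 4 shTardbp arrays and shLuciferase 4 also share the first letter of a sample code, P, and the other control arrays have the letter C, whose meaning the labels do not give. A fit with this letter as a block takes the letter's effect from shLuciferase 4 against the other shLuciferase arrays. Its results below therefore rest on that 1 array.

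The labelled neuronal identity was read against marker genes. The mean over 10 measured motor neuron and neuron markers was 8.23 to 8.47 on the shTardbp arrays, 8.11 to 8.26 on shGFP and 8.22 to 8.27 on shLuciferase, while Mnx1, a defining transcription factor of motor neurons, was below the 25th percentile on all arrays. Chat, another of these markers, read 4.11 to 4.49, near or under that mark, and Lhx3 read 4.73 to 5.02. The highest values in the mean came from Snap25 (11.5 to 11.9) and Stmn2 (11.9 to 12.2). The mean over 10 pericyte and smooth muscle markers was 4.75 to 4.87, 4.81 to 4.83 and 4.73 to 4.89 in the same order, and over 10 endothelial markers it was 4.86 to 4.92, 4.77 to 4.83 and 4.83 to 4.93. In these bulk RNA samples, fewer cells that express a gene and less RNA per cell cannot be told apart.

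The RefSeq promoter sequences of 9 of the 10 genes were found for the GRCm38.p6 assembly. The 4 genes with the largest differences between the control lines among them are shown, as the 250 bases before the annotated start and in the gene's own direction. Capitals mark matches on either strand to the cyclic AMP response element (CRE) core TGACG, the TATA box TATAAA, the CCAAT box and the GC box GGGCGG, motifs picked because cyclic AMP and Gq signals act on some of them. Rgs4 lies on the minus strand (chr1:169747643-169747892) and Rgs5 on the plus strand (chr1:169655251-169655500) of the same chromosome, Ramp3 on the plus strand (chr11:6658283-6658532) and Calcrl on the minus strand (chr2:84425267-84425516).
Rgs4: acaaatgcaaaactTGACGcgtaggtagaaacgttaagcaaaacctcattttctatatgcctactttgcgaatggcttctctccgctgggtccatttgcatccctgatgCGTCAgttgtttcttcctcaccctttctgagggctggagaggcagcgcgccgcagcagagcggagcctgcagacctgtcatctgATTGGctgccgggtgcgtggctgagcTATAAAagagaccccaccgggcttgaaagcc
Rgs5: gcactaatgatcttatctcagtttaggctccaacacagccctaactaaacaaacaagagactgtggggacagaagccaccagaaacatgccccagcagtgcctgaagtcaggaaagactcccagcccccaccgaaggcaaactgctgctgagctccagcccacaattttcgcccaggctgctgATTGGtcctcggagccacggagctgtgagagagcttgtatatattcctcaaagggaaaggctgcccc
Ramp3: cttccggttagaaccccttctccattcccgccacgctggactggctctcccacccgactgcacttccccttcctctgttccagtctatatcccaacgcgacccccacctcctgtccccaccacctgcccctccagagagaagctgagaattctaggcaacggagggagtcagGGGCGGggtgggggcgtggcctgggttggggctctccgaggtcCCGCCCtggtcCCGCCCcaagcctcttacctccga
Calcrl: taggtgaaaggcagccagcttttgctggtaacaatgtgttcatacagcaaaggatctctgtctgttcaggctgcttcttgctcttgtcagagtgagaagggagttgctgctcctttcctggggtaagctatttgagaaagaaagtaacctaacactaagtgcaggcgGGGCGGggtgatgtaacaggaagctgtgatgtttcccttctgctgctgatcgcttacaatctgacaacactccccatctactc

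The 4 windows shared no arrangement of these motifs. Rgs4 held 2 CRE cores, 236 and 141 bases before the start, a TATA box at 31 and an inverted CCAAT box at 57. Rgs5 held only an inverted CCAAT box at 67, Ramp3 held 3 GC boxes at 78, 35 and 24, and Calcrl held 1 GC box at 83. Of 32851 promoter windows of this length, 17.8% held the CRE core, 12.4% the TATA box, 33.8% the CCAAT box and 32.7% the GC box, so each motif is common. The full CRE TGACGTCA, present in 1.55% of windows, was in none of the 9. The AP-1 site TGANTCA, present in 6.75%, was found only in Rgs17 among the 9. Such matches are letters in a window and show no binding.

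Against the mean of both controls, 8 of the 10 genes passed the limma test in shTardbp (Benjamini-Hochberg adjusted p under 0.05), where 30.5% of all genes passed. Rgs2 was higher (13.5% of all genes were) and Rgs5, Rgs10, Rgs16, Rgs17, Ramp2, Ramp3 and Calcrl were lower (17% were), while Rgs4 and Ramp1 did not pass. The median log2 change of the 10 genes was -0.39, against 0.0072 over all genes. Rgs4, Rgs5 and Ramp3 were picked by the control values that this mean is made of. The count and the median over all 10 genes are therefore a description. Of the genes not picked that way, Rgs2, Rgs10, Rgs16, Rgs17, Ramp2 and Calcrl passed and Ramp1 did not. All 10 genes were chosen with earlier results of these data known, so the counts among the other 7 are a description too. The 4 shTardbp values lay below all 7 control values for Rgs16, Rgs17, Ramp2 and Calcrl, while 9.82% of all genes had shTardbp arrays below all controls and 18.3% had them apart on either side. Among the 7 genes not picked for the control difference, 4 passed against shGFP alone, where 27.9% of all genes did. They were 1 higher (12.4% of all genes) and 3 lower (15.5%). Against shLuciferase alone 5 of the 7 passed, where 26.1% did, 1 of them higher (11.8%) and 4 lower (14.3%). These comparisons share the shTardbp arrays.

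**Figure D1:**
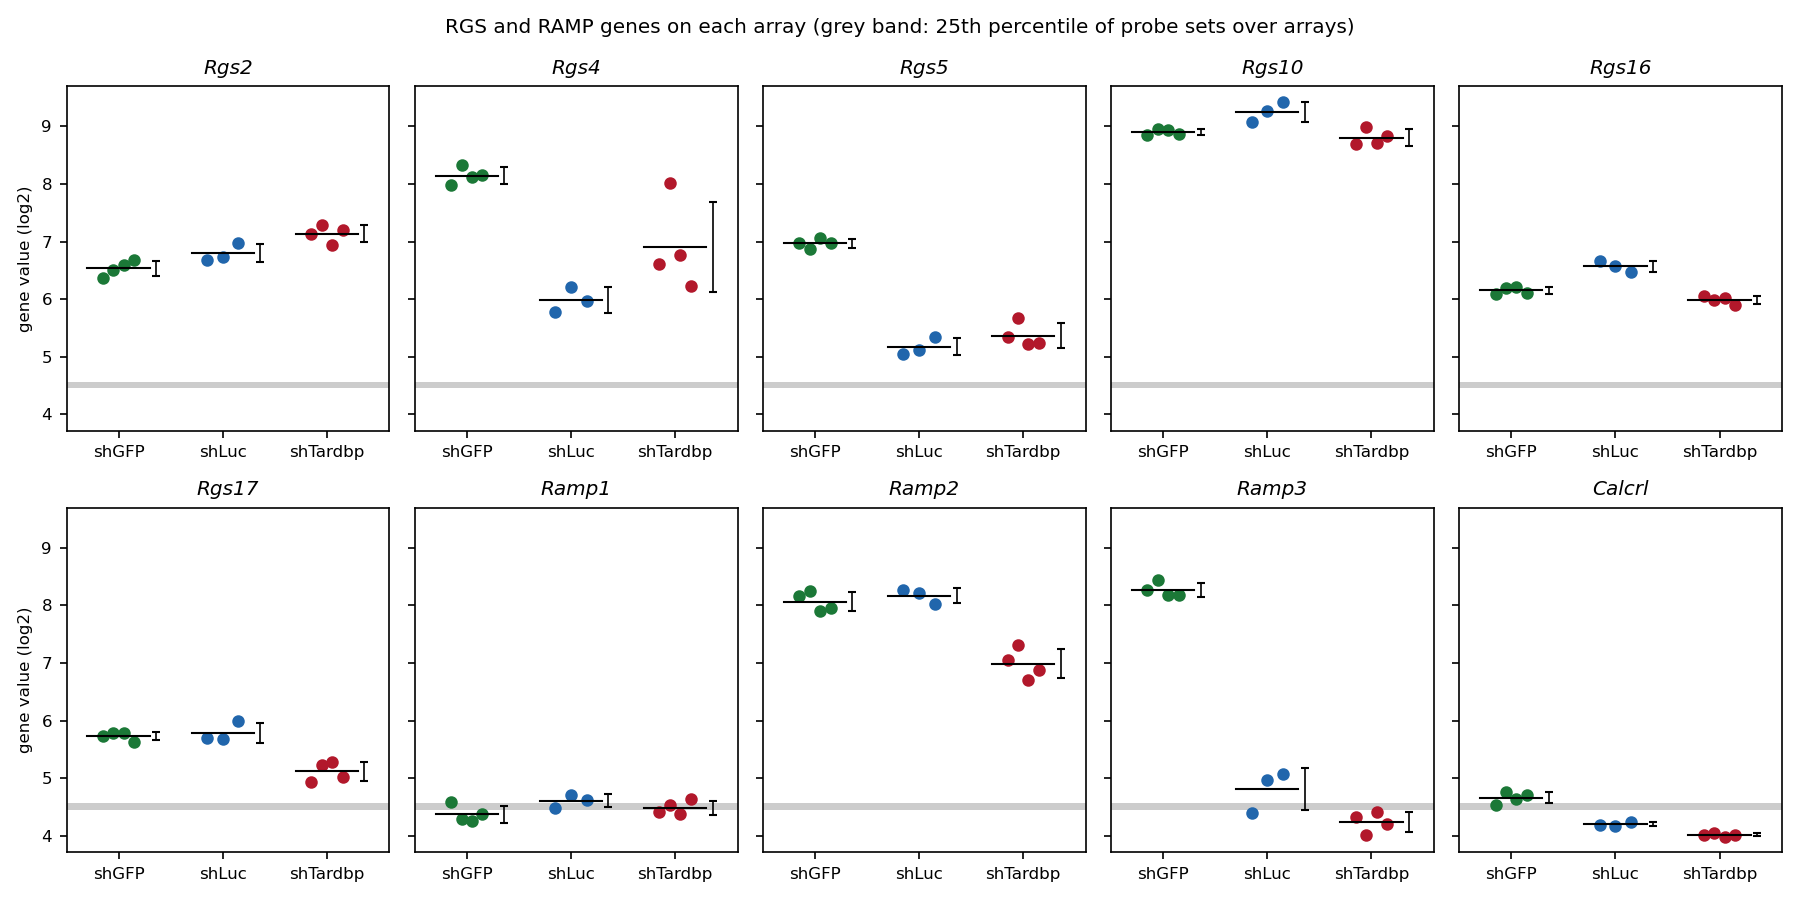
Log2 gene value (y axis) on each array for the 10 genes, with 1 point per array, the group mean as a horizontal line and the SD as a bar beside it, and the range of the 25th percentile of probe sets over arrays as a grey band. Ramp2 and Rgs17 sit lower in shTardbp than in either control, and Rgs4, Rgs5 and Ramp3 sit high in shGFP and low in shLuciferase.

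Rgs2 was the one gene of the set that rose. RGS2 acts preferentially on Gq alpha subunits. Its value was 7.13, 7.29, 6.94 and 7.19 on shTardbp 1 to 4, against 6.38, 6.50, 6.59 and 6.67 on the shGFP arrays and 6.69, 6.73 and 6.97 on the shLuciferase arrays. All shTardbp arrays were above all shGFP arrays, and 1 of them, shTardbp 3, was just under the highest shLuciferase array, shLuciferase 4. Against both controls Rgs2 rose by 0.47 on the log2 scale (SE 0.0837, limma adjusted p = 0.000647), which is 1.39-fold. It was 0.60 (adjusted p = 0.000271) against shGFP and 0.34 (adjusted p = 0.0234) against shLuciferase, and all 8 probe sets of the gene were higher in shTardbp than in either control mean. The call depended on which arrays were compared. With the code letter as a block the value against both controls by limma was 0.25 (adjusted p = 0.285), and against shLuciferase the call was also lost without shTardbp 2, shTardbp 4, shLuciferase 1 or shLuciferase 2 (adjusted p from 0.0568 to 0.107) or with the median of the probe sets (adjusted p = 0.218).

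Rgs17 fell by a similar amount against each control. RGS17 belongs to the RZ group of RGS proteins and acts on Gz as well as on other Gi/o subunits. The shTardbp arrays read 4.94, 5.24, 5.28 and 5.02, the shGFP arrays 5.73, 5.78, 5.78 and 5.63, and the shLuciferase arrays 5.71, 5.67 and 5.99. Every shTardbp value was below every control value, and both control groups overlapped. Rgs17 changed by -0.64 (log2, SE 0.0824, limma adjusted p = 4.40e-05) against both controls, -0.61 against shGFP (adjusted p = 0.000203) and -0.67 against shLuciferase (adjusted p = 0.000206). The controls themselves differed by -0.06 (adjusted p = 0.848, 95% confidence interval -0.27 to 0.16). All 6 probe sets were lower in shTardbp than in both control means, and 3 of them were below all 7 control arrays.

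Rgs16 and Rgs10 were highest in shLuciferase. RGS16 is a small RGS protein that acts on Gi/o and Gq subunits, and RGS10 is a small one that prefers Gi/o subunits. Rgs16 was 6.05, 5.98, 6.02 and 5.89 in shTardbp, 6.09, 6.20, 6.21 and 6.12 in shGFP and 6.66, 6.57 and 6.48 in shLuciferase. The 3 groups did not overlap, with shTardbp only slightly under shGFP. The 9 probe sets of Rgs16 were uneven: all 9 were lower in shTardbp than in shLuciferase, by values from -1.33 to -0.09, and 7 were lower than in shGFP. The log2 change of Rgs16 was -0.37 (SE 0.0586, limma adjusted p = 0.000232) against both controls, made of -0.58 (adjusted p = 4.27e-05) against shLuciferase and -0.17 against shGFP, which missed the threshold (adjusted p = 0.0799) but passed it after a further quantile normalization (adjusted p = 0.0407) or with array weights (adjusted p = 0.0316). With the code letter as a block, the limma change against both controls was -0.26 (adjusted p = 0.113).

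Rgs10 gave 8.69, 8.99, 8.71 and 8.83 on the shTardbp arrays, 8.85, 8.95, 8.94 and 8.87 on shGFP, and 9.08, 9.26 and 9.42 on shLuciferase. The shTardbp and shGFP arrays overlapped, and both lay below shLuciferase. The 7 probe sets of Rgs10 disagreed: 5 were lower in shTardbp than in both control means and 2 were higher than both. Rgs10 changed by -0.45 (log2, SE 0.0932, limma adjusted p = 0.00255) against shLuciferase and -0.10 (adjusted p = 0.511, 95% confidence interval -0.28 to 0.09) against shGFP. Against both controls it was -0.27 (adjusted p = 0.0147), a call that was lost without shTardbp 1 (adjusted p = 0.0567), without shTardbp 3 (adjusted p = 0.0581) or with the median of the probe sets (adjusted p = 0.142).

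Rgs4 and Rgs5 were the RGS genes that set the control lines apart. Both encode small RGS proteins that act on Gi/o and Gq subunits. By absolute difference between shGFP and shLuciferase, Rgs4 ranked 4 and Rgs5 ranked 7 of 15803 genes, which is the value they were picked by.

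Rgs4 was 7.98, 8.33, 8.12 and 8.16 in shGFP and 5.77, 6.22 and 5.97 in shLuciferase, a log2 difference of 2.16 (SE 0.297), or 4.46-fold. In shTardbp it was 6.61, 8.02, 6.77 and 6.23. The shTardbp 2 array was inside the shGFP range, and the other 3 were between the control groups, shTardbp 4 only just above the highest shLuciferase array. Rgs4 thus had the widest spread in shTardbp among the 10 genes (6.91 ± 0.776, SD, n = 4), and shTardbp 2 was above the other shTardbp arrays in all 6 of its probe sets. The difference of the shTardbp mean was -1.24 from shGFP and 0.92 from shLuciferase, given without a test. Without shTardbp 2 these differences were -1.61 and 0.55. The value against both controls was small, -0.16 (SE 0.245, limma adjusted p = 0.731). That last value rests on single arrays. Without shTardbp 2 it was -0.53 (limma adjusted p = 0.00531), and without shTardbp 4 it was 0.068 (adjusted p = 0.880). Rgs4 too was picked by control values inside this mean, so these p-values are descriptions.

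Rgs5 was 6.97, 6.86, 7.06 and 6.98 in shGFP, 5.06, 5.13 and 5.35 in shLuciferase and 5.34, 5.68, 5.22 and 5.24 in shTardbp. The shGFP arrays were all above the rest, and shTardbp overlapped shLuciferase. The log2 difference between the controls was 1.79 (SE 0.110), or 3.46-fold. The shTardbp mean was -1.60 from shGFP and 0.19 from shLuciferase, given without a test. From shLuciferase it was 0.087 without shTardbp 2 and 0.02 with the code letter as a block. Against both controls the change was -0.70 (SE 0.0908, limma adjusted p = 4.61e-05), a mean of a large difference from one control and a small one of opposite sign from the other. Rgs5 was picked by control values inside this mean, so the p-value is a description. Of its 8 probe sets, 8 were lower in shTardbp than in shGFP and 1 was lower than in shLuciferase.

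**Figure D2:**
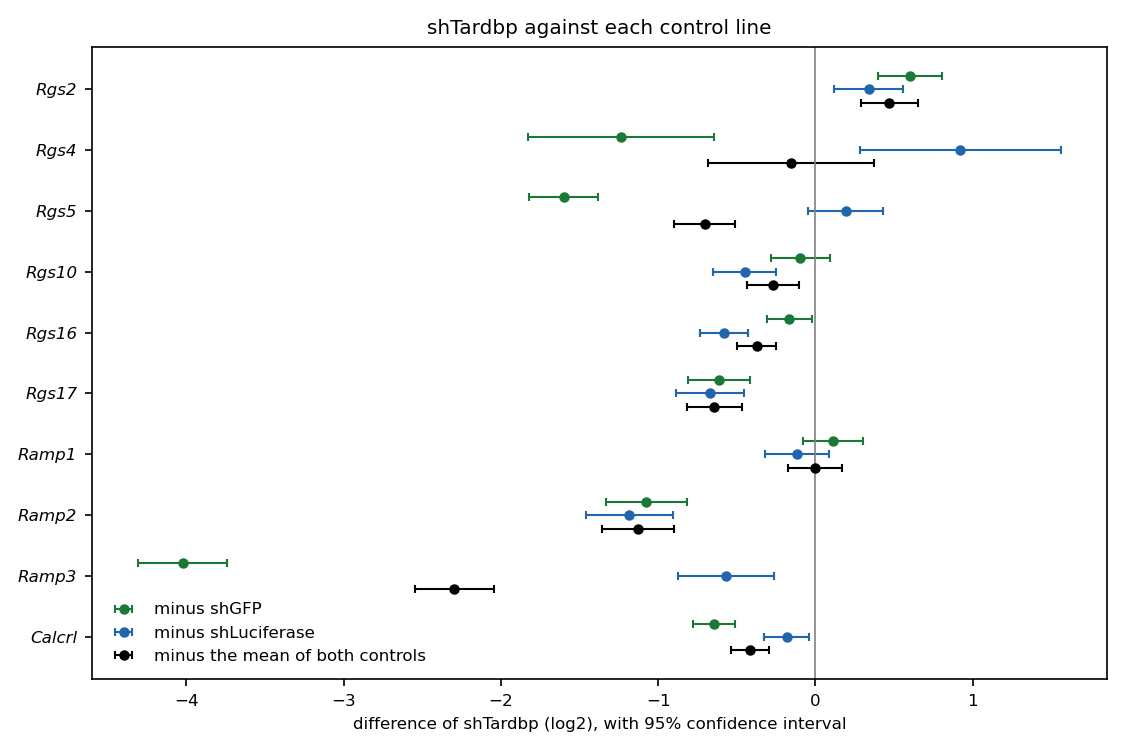
Log2 difference of the shTardbp mean (x axis) from shGFP, from shLuciferase and from the mean of both controls for each of the 10 genes, with bars for the 95% confidence interval from limma. For Rgs4, Rgs5 and Ramp3 the bars take no account of how these genes were picked, and those for single controls are no test. Ramp2 and Rgs17 have nearly the same difference from either control, whereas Rgs4, Rgs5 and Ramp3 do not.

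Rgs4 and Rgs5 are next to each other among the measured genes of chromosome 1, so their flanks were read too. Nuf2, a kinetochore gene on the far side of Rgs5, differed between the controls by 0.34 (limma adjusted p = 0.0342), and Hsd17b7, a gene of cholesterol synthesis on the far side of Rgs4, by -0.21 (adjusted p = 0.154). The median control difference of the 20 measured genes around was 0.06 for Rgs4 and 0.05 for Rgs5. Rgs4 (2.16) and Rgs5 (1.79) were picked for the size of this difference. Smaller differences in the genes beside them were therefore nearly fixed in advance and are no test of the region. In shTardbp against both controls, Nuf2 fell by 0.83 (limma adjusted p = 3.72e-06) and Hsd17b7 fell by 0.40 (adjusted p = 0.000707).

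The receptor side turned on Ramp3 and Ramp2. Ramp2 encodes the partner that makes CALCRL an adrenomedullin receptor. It was 7.05, 7.30, 6.71 and 6.88 in shTardbp, 8.16, 8.24, 7.90 and 7.95 in shGFP and 8.27, 8.22 and 8.02 in shLuciferase. All shTardbp arrays were below all controls, and the controls overlapped each other. Ramp2 changed by -1.13 (log2, SE 0.106, limma adjusted p = 3.25e-06) against both controls, 2.19-fold lower, and it ranked 112 of 15803 genes by size. Against shGFP it was -1.07 (adjusted p = 1.66e-05) and against shLuciferase -1.18 (adjusted p = 1.75e-05), while the controls differed by -0.11 (adjusted p = 0.744, 95% confidence interval -0.39 to 0.17). All 5 probe sets of Ramp2 were below every control array, with differences from the shGFP mean between -1.54 and -0.45.

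Ramp3, the alternative adrenomedullin partner of CALCRL, was the gene with the largest absolute difference between the control lines of all 15803, the property it was picked by. It read 8.28, 8.44, 8.18 and 8.19 on the shGFP arrays, 4.40, 4.97 and 5.07 on the shLuciferase arrays and 4.33, 4.01, 4.42 and 4.21 on the shTardbp arrays. The shGFP arrays stood far above all others. The 4 shTardbp arrays and shLuciferase 1 were below the 25th percentile of probe sets, so Ramp3 is not shown to be above background there and the size of its difference is not known beyond what the arrays read. The control difference was 3.46 (SE 0.142) on the log2 scale and shTardbp differed from shGFP by -4.02, given without a test. From shLuciferase it differed by -0.57, with overlapping arrays. With the median of the probe sets this last value was -0.29. Against both controls the change was -2.30 (SE 0.117, limma adjusted p = 1.60e-08), ranking 4 by size, and the larger share of it is the difference from shGFP. The shGFP values by which Ramp3 was picked are part of this mean, so its p-value and rank are a description and no separate support. All 3 probe sets gave the same order of groups, with shTardbp minus shGFP between -5.13 and -3.09.

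Calcrl, the receptor gene itself, was dim everywhere. Its values were 4.02, 4.05, 3.99 and 4.02 in shTardbp, 4.54, 4.76, 4.64 and 4.71 in shGFP and 4.18, 4.18 and 4.24 in shLuciferase. The 3 groups did not overlap, but all shTardbp and shLuciferase arrays and 1 shGFP array were below the 25th percentile. The change was -0.41 (SE 0.0555, limma adjusted p = 6.28e-05) against both controls, -0.65 (adjusted p = 5.04e-06) against shGFP and -0.18 (adjusted p = 0.0614) against shLuciferase. The last value passed after a further quantile normalization (adjusted p = 0.0475), with array weights (adjusted p = 0.0216) or without shGFP 1 (adjusted p = 0.0412). Of its 17 probe sets, 16 were lower in shTardbp than in shGFP and 14 lower than in shLuciferase.

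Ramp1, the partner for CGRP, was also dim and did not pass any of the tests. It was 4.41, 4.53, 4.38 and 4.64 in shTardbp, 4.59, 4.29, 4.26 and 4.38 in shGFP and 4.49, 4.71 and 4.62 in shLuciferase. All groups overlapped. The change against both controls was -0.0023 (limma adjusted p = 0.992, 95% confidence interval -0.17 to 0.17). On 2 shTardbp and 3 shGFP arrays Ramp1 was below the 25th percentile.

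The measured neighbours of the other genes were read in the same way, in shTardbp against both controls. Beside Ramp2, Ezh1, a Polycomb methyltransferase, was -0.04 (limma adjusted p = 0.715), and Vps25, a gene of endosomal sorting, was -0.21 (adjusted p = 0.0116), against -1.13 for Ramp2. Beside Ramp3, Tbrg4 was -0.55 (adjusted p = 2.81e-05) and Igfbp1 -0.03 (adjusted p = 0.857), and between the controls they differed by -0.25 and 0.06. Ramp3 itself differed by 3.46 there, the largest difference of all genes and the value it was picked by. Its neighbours therefore had to differ by less. Both neighbours of Rgs16 fell with it. Rgs8, another RGS gene, was -0.28 (adjusted p = 0.00566) and Glul, the glutamine synthetase gene, was -0.45 (adjusted p = 0.0403). Beside Rgs17, Mtrf1l was 0.29 (adjusted p = 0.0532) and Oprm1, an opioid receptor gene, 0.04 (adjusted p = 0.730). The remaining neighbours that passed were Uchl5 beside Rgs2 (-0.33, adjusted p = 0.00237) and Lrrfip1 beside Ramp1 (0.21, adjusted p = 0.0158), whereas Rgs13, Slc5a2, Tial1, Ube2f, Zswim2 and Tfpi did not.

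**Figure D3:**
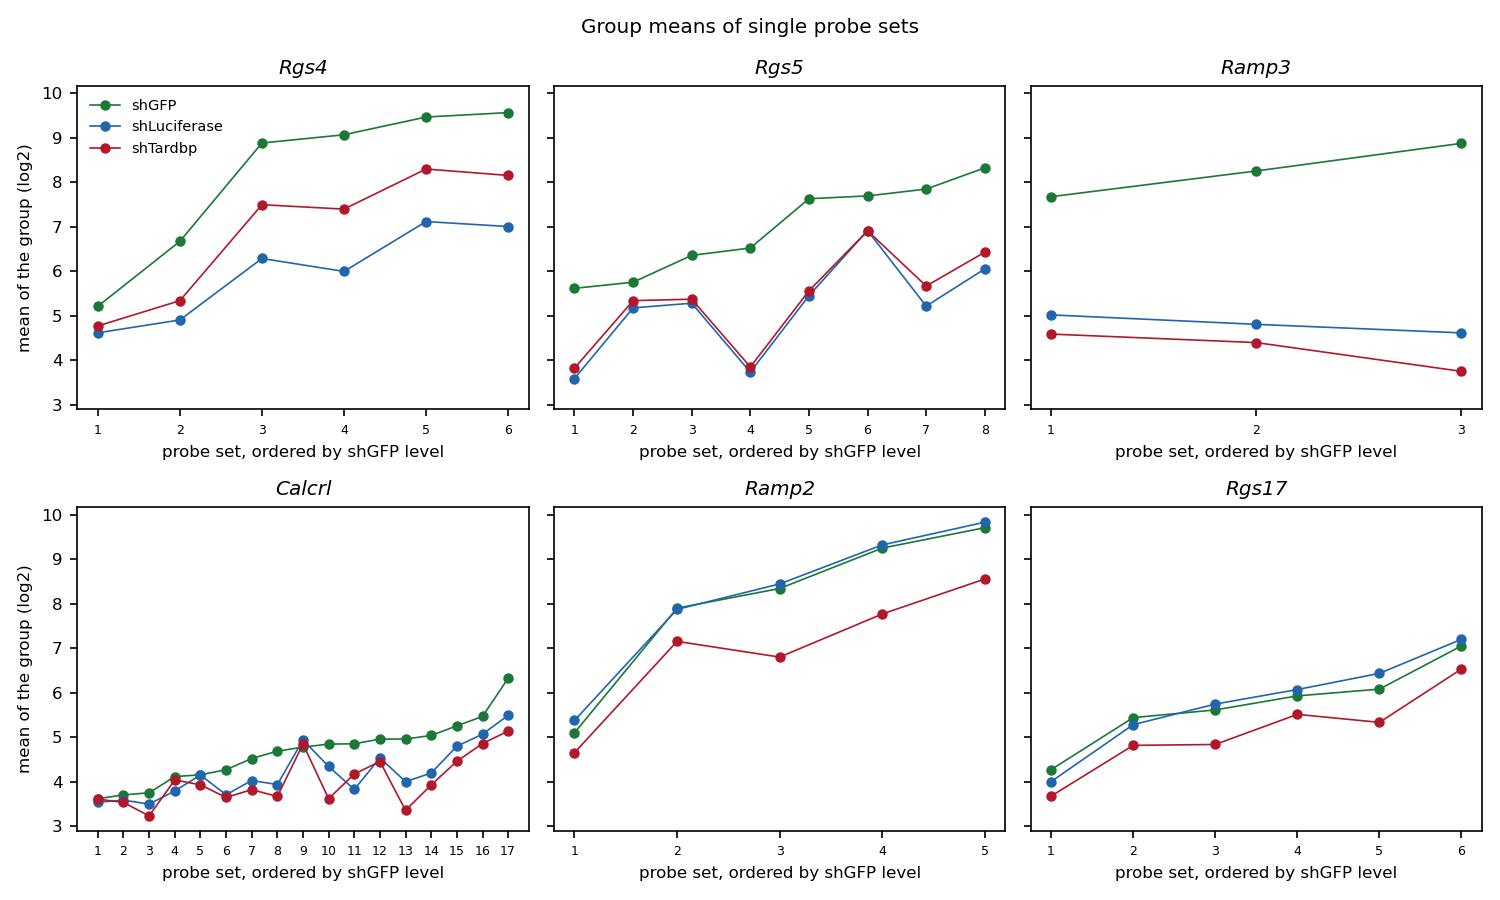
Mean log2 value of each group (y axis) for every probe set of 6 of the genes, ordered along the x axis by its shGFP level, with 1 line per group. For Ramp2 the shTardbp line lies under both control lines at all 5 probe sets, and for Rgs4 and Rgs5 the shGFP line lies on top at all of them.

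Between the control lines themselves, 3 of the 7 genes not picked for that difference passed the limma test, where 11.1% of all genes did (6.26% higher and 4.82% lower in shGFP). The count is a description, since the set was chosen with earlier results of these data known. Calcrl was higher in shGFP than in shLuciferase by 0.46 (SE 0.0673, adjusted p = 0.000525), as was Ramp3 in the description above. Rgs16 was lower by 0.42 in shGFP (log2 change -0.42, SE 0.0711, adjusted p = 0.00168). Rgs10 was lower too (-0.35, SE 0.0932, adjusted p = 0.0260), but it lost the call under 7 of the alternatives tried, namely without shGFP 1, shGFP 5, shLuciferase 2 or shLuciferase 4 (adjusted p from 0.0582 to 0.102), with the replicate block (-0.29, adjusted p = 0.120), with the code letter as a block (-0.27, adjusted p = 0.102) and with the probe sets' median (adjusted p = 0.195). For this comparison the letter block and leaving out shLuciferase 4 amount to the same fit, so they are not separate alternatives. Rgs2 (-0.26, adjusted p = 0.131), Rgs17, Ramp1 (-0.23, adjusted p = 0.162) and Ramp2 did not pass.

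Genes whose array profile was most like those of Rgs4, Rgs5 and Ramp3 were looked up by Pearson's r over the 11 arrays, among 1308 genes that ranged over at least 1 log2 unit. Since the arrays fall into groups, r is a description here and no test was made. For Rgs4 they were Stc1 (stanniocalcin, r = 0.965), Slc2a3 (a neuronal glucose transporter, r = 0.961) and Stom (stomatin, r = 0.957). Stc1 also had its odd value on shTardbp 2, 5.71 against 4.54 to 4.65 on the other shTardbp arrays, 5.70 to 6.04 in shGFP and 4.47 to 4.52 in shLuciferase. Since Stc1 was picked for its likeness over all 11 arrays, its value on shTardbp 2 is part of that likeness and no separate result. Rgs5 was most like Mfng (a Notch glycosyltransferase, r = 0.987), Klhl4 (r = 0.985) and Mgat4c (r = 0.983). Ramp3 was most like Aig1 (r = 0.990), Cth (an enzyme of cysteine synthesis, r = 0.987) and Sox6 (a transcription factor, r = 0.987). By the same choice, the genes most like Rgs5 and Ramp3 were high in shGFP and lower in the other groups. An example is Mfng, with means of 6.42, 4.72 and 4.85 in shGFP, shLuciferase and shTardbp.

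The rest of the RGS family had about the background share of calls. Of 13 other RGS genes measured, 2 were higher and 2 lower in shTardbp than both controls (30.8%, against 30.5% of all genes), with a median log2 change of -0.016. Rgs3 fell by 0.59 (SE 0.0542, limma adjusted p = 2.74e-06), from 6.68 to 6.78 in shGFP and 6.69 to 6.74 in shLuciferase to 6.02 to 6.19 in shTardbp. Rgs9 rose by 0.61 (SE 0.0742, adjusted p = 2.91e-05) and Rgs7 by 0.67 (SE 0.128, adjusted p = 0.00112), both members of the neuronal group of RGS proteins that pair with the beta subunit Gnb5. For Rgs7 the code letter as a block gave 0.13 (adjusted p = 0.666).

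Among the G proteins on which RGS proteins act, 5 of 8 measured alpha subunit genes passed against both controls (62.5%, against 30.5% of all genes), 4 higher and 1 lower, with a median of 0.17. The controls gave unlike counts, 6 of 8 against shGFP (27.9% of all genes) and 1 of 8 against shLuciferase (26.1% of all genes). Gnaz, the Gz subunit on which RGS17 acts, rose by 0.32 (SE 0.0557, limma adjusted p = 0.000486) while Rgs17 fell. Its shTardbp arrays spanned 8.61 to 8.69, above 8.37 to 8.45 in shGFP and 8.19 to 8.40 in shLuciferase. The Gq family split, with Gnaq at 0.23 (adjusted p = 0.0134) and Gna11 at -0.31 (adjusted p = 0.00789), and both calls were lost with the median of the probe sets (adjusted p = 0.0825 and 0.107). Against shLuciferase alone neither passed (adjusted p = 0.160 for Gnaq and 0.0515 for Gna11). With the code letter as a block, Gnaz had an adjusted p of 0.217 and Gna11 one of 0.672.

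Downstream of Gq, 1 of 3 measured phospholipase C beta genes passed (33.3%, against 30.5% of all genes). Plcb3 rose by 0.69 (SE 0.0775, limma adjusted p = 1.58e-05), with 8.24 to 8.49 in shTardbp, 7.66 to 7.93 in shGFP and 7.40 to 7.70 in shLuciferase. Of 14 genes of adenylyl cyclases and protein kinase A, the cyclic AMP route of CALCRL, 6 were higher and 1 lower, with a median of 0.09. That is 50%, against 30.5% of all genes. Adcy4, a membrane cyclase, rose by 1.02 (SE 0.0685, adjusted p = 1.77e-07), from 5.97 to 6.10 in shGFP and 6.48 to 6.67 in shLuciferase to 7.17 to 7.47 in shTardbp. The regulatory subunits of protein kinase A went both ways, with Prkar1b up by 0.80 (adjusted p = 4.45e-06) and Prkar2a lower (-0.65, adjusted p = 3.70e-06).

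Of 10 other receptors known to pair with RAMPs, 3 were lower in shTardbp than in both controls and none was higher, with a median of -0.038. That is 30%, about the 30.5% of all genes. Pth1r, the parathyroid hormone receptor, changed by -0.69 (SE 0.0755, limma adjusted p = 1.19e-05), and Vipr2, a VIP receptor, by -0.54 (SE 0.0760, adjusted p = 9.41e-05). Both had shTardbp arrays below all controls, as Ramp2 did. Gper, the G protein-coupled oestrogen receptor, was -0.56 against both controls (adjusted p = 0.000547), but 0.09 against shGFP (adjusted p = 0.638) and -1.21 against shLuciferase (adjusted p = 6.99e-06). Taking the probe sets' median, the value against both controls was -0.31 (adjusted p = 0.138). Its control lines differed by -1.30 (adjusted p = 1.13e-05), in the opposite direction to Ramp3.

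Of 6 ligand and receptor component genes of the calcitonin family, 1 passed (16.7%, against 30.5% of all genes). This was Adm2, the gene of intermedin, at -0.44 (SE 0.0875, limma adjusted p = 0.00142). It spanned 9.09 to 9.25 in shTardbp, 9.65 to 10.2 in shGFP and 9.36 to 9.43 in shLuciferase, and with the code letter as a block its adjusted p was 0.122. Of 8 receptor kinase and arrestin genes, 3 were higher and 2 lower (62.5%, against 30.5% of all genes). Adrbk2 rose by 0.34 (adjusted p = 0.000973) and Adrbk1 by 0.29 (adjusted p = 0.00670), and Grk5, a kinase of another subgroup, was lower (-0.32, adjusted p = 0.0127), a call lost without shTardbp 2 (adjusted p = 0.0502), with the probe sets' median (adjusted p = 0.0569) or with the letter block (adjusted p = 0.189).

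**Figure D4:**
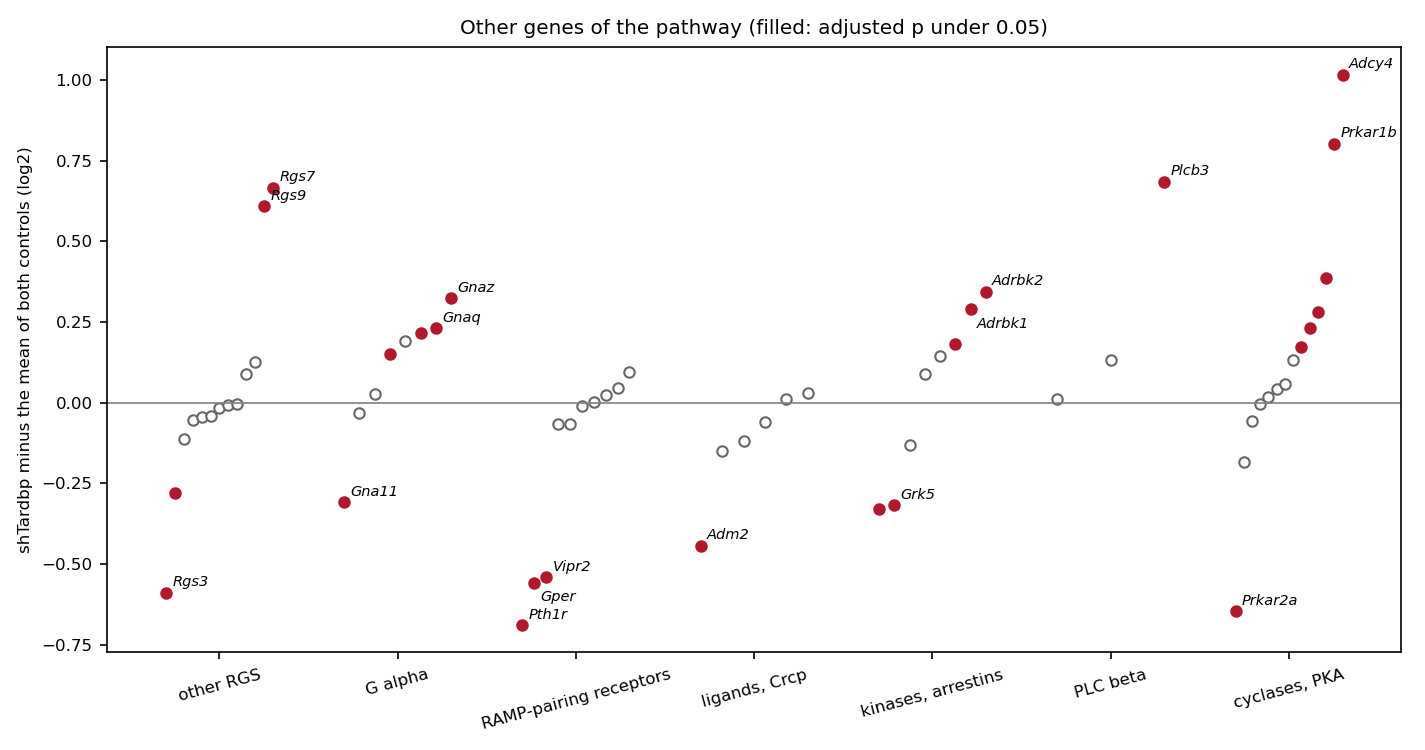
Log2 difference of shTardbp from the mean of both controls (y axis) for the other genes of the pathway, 1 point per gene, sorted within each list along the x axis and filled where the limma adjusted p was under 0.05. The points of other RGS genes and RAMP-pairing receptors lie mostly near 0, and Adcy4 (1.02), Prkar1b (0.80) and Plcb3 (0.69) lie highest.

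Rgs5, Ramp2, Ramp3 and Calcrl are also genes of vessel cells, so markers of those cells were read beside them. Of 10 pericyte and smooth muscle markers, 2 were higher and 1 lower in shTardbp than in both controls, and of 10 endothelial markers 1 was higher and none lower. That is 30% and 10%, against 30.5% of all genes. Pdgfrb, a pericyte receptor, was 0.41 higher against both controls (limma adjusted p = 0.000753) and, like Rgs5, higher in shGFP than in shLuciferase, by 0.75 (adjusted p = 0.000119). It was the only one of the 10 pericyte markers that passed between the controls (10%, against 11.1% of all genes). Unlike Rgs5 it did not differ detectably between shTardbp and shGFP (0.04, adjusted p = 0.822). Notch3 was lower (-0.41, adjusted p = 0.00399), and Acta2, a smooth muscle actin, was higher by 0.18 (adjusted p = 0.0231), a call lost under 9 of 19 alternatives. Of the 10 endothelial markers 1 passed between the controls (also 10%), Kdr, a receptor for VEGF, which was lower in shGFP than in shLuciferase (-0.63, adjusted p = 0.00160). The endothelial Pecam1 was 0.41 higher (adjusted p = 0.00706), and Cdh5, an endothelial cadherin, was near the 25th percentile in all groups, from 4.38 to 4.65. The 7 markers of Schwann cells and other glia had 5 measured, 1 of them, Mbp, higher by 0.24 (adjusted p = 0.0124). That is 20%, against 30.5% of all genes. Whether the marker changes have a part in the RGS and RAMP values was not tested. Of 10 motor neuron and neuron markers, 1 passed (10%, against 30.5% of all genes): Slc18a3, the vesicular acetylcholine transporter, was 0.63 higher against both controls (adjusted p = 0.000129). With the code letter as a block, the calls against both controls were lost for Notch3 (limma adjusted p = 0.209), Pdgfrb (0.209), Mbp (0.256) and Slc18a3 (0.0571).

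Neuronal markers also moved between the control lines that differ in Rgs4, Rgs5 and Ramp3. Of the 10, 1 was higher and 3 were lower in shGFP than in shLuciferase (40%, against 11.1% of all genes), and 4 passed in shTardbp against shGFP (40%, against 27.9%). Isl1, a transcription factor of motor neurons, averaged 8.66 ± 0.0833 (SD, n = 4) in shGFP, 7.55 ± 0.181 (SD, n = 3) in shLuciferase and 8.15 ± 0.264 (SD, n = 4) in shTardbp, the same order of groups as Rgs4. It was higher in shGFP than in shLuciferase by 1.11 (limma adjusted p = 6.73e-05). Tubb3, a neuronal tubulin (-0.65, adjusted p = 0.00644), Nefm, a neurofilament gene (-0.56, adjusted p = 0.0107), and Slc18a3 (-0.46, adjusted p = 0.0160) were lower there. Their part in the control differences of the RGS and RAMP genes was not tested.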

How the data were processed

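Total RNA of 11 NSC34 samples was amplified, biotin-labelled and hybridised to Affymetrix whole-transcript arrays, as the labels' protocols say. The deposited values are log2 expression per probe set. Partek and RMA are named in the submitters' processing notes without a version. Background correction, normalization settings and the probe sets' build were not given in the sources used here. Of 194293 probe sets, 179496 had 1 gene symbol, 1328 several and 13469 none. Arrays were compared before use: correlations over all probe sets lay between 0.979 and 0.993 and no 2 arrays were identical. The number of arrays limits the precision.

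The 1-symbol probe sets of a gene were averaged. All 15803 genes were fitted together, with a mean for each of the 3 groups, in R 4.3.3 with limma 3.58.1 (lmFit, eBayes), without a filter, with Benjamini-Hochberg adjustment across every gene. Contrasts were shTardbp against the mean of the control groups, against each control, and shGFP against shLuciferase. Rgs4, Rgs5 and Ramp3 were tested only against both controls, a stricter choice than planned, because the other contrasts involve the difference they were picked by. The mean of both controls is made of the same control values, so that test is not free of the choice either. The script was tested on simulated data for shTardbp against both controls (15803 genes): 50 of 50 genes raised by 1 and 50 of 50 lowered by 1 were found, 43 of 50 raised and 44 of 50 lowered by 0.5, with 6 false calls among 15603 unchanged genes.

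The members and gene lists were chosen with earlier results of these data known. Named genes were the 10 members and Tardbp, up to 3 genes per list with the smallest adjusted p among those past the threshold, the 3 genes most like Rgs4, Rgs5 and Ramp3, and the measured neighbours of the members. Mnx1, Chat, Lhx3, Snap25, Stmn2, Cdh5, Kdr, Isl1, Tubb3, Nefm and the genes apart on shTardbp 2 were named after their values were seen. Promoters came from RefSeq (GRCm38.p6). Figures were drawn with matplotlib 3.10.9 in Python 3.11.15. Alternatives were the median of the probe sets, filters on dim probe sets or genes, quantile normalization or median centring, array weights, an intensity trend, blocks for the replicate number or the code letter, and leaving out each array.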

Additional observations from a re-analysis of the deposited data

Results flagged for a closer look

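Of 122 group checks for a single distant array, made in the groups of 4 arrays on the RGS and RAMP genes, Tardbp, the list genes, the look-alike genes and the neighbours, 7 passed Dixon's 95% critical value for 4 samples, and none of the 20 on the RGS and RAMP genes did. Chance alone marks about 1 in 20 groups. Adm2, the gene of the CALCRL ligand intermedin, read 10.2 on shGFP 2 against 9.65 to 9.73 on the other shGFP arrays, a gap of 0.854 of the group's range. Adrbk1, a receptor kinase gene, read 8.64 on the same array against 8.44 to 8.47, a gap of 0.838, and Lrrfip1, the neighbour of Ramp1, read 5.54 there against 5.58 on the others, a gap of 0.886. Stc1, picked for its likeness to Rgs4 over these same arrays, read 5.71 on shTardbp 2 against 4.54 to 4.65, a gap of 0.902. Mfng read 4.67 on shTardbp 4 against 4.89 to 4.94, a gap of 0.830. Cth read 9.92 on shGFP 3 against 10.09 to 10.11, a gap of 0.882, and Hsd17b7, the neighbour of Rgs4, read 9.17 on shGFP 1 with the others up to 9.53, a gap of 0.911.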

How the results depend on the processing

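Leaving out 1 array at a time gave 4093 to 4984 genes past the threshold against both controls (7 to 9 of the 10 members), 3765 to 4710 against shGFP (4 to 4 of 7), 3361 to 4220 against shLuciferase (4 to 6 of 7) and 1204 to 1743 between the controls (2 to 3 of 7). A block for the code letter left 2509 genes past the threshold against both controls instead of 4825 and 1933 against shGFP instead of 4416, and Tardbp no longer passed (-0.29, limma adjusted p = 0.173). Letter P holds the whole shTardbp group and 1 control array, shLuciferase 4. The letter's effect is therefore set by the difference of that array from the other shLuciferase arrays. Against shLuciferase this fit compares the shTardbp mean with shLuciferase 4 alone. Calls lost under this block, here and above, cannot tell an effect of the letter from a deviation of that array. Between the controls, 962 genes passed with the median of the probe sets, 2916 with array weights and 1000 with the replicate block, against 1752. Filtering on genes above the median level kept 4 members, and 3, 2, 3 and 1 of them passed in the 4 comparisons. In shTardbp, Ramp2, Rgs17 and, against both controls, Ramp3, Rgs5 and Calcrl kept their calls under every alternative that retained them. For Ramp3 and Rgs5 each alternative reuses the control values they were picked by, so the kept calls are no further support. The shTardbp arrays overlapped shLuciferase for both of these genes.

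Values near 0 changed sign. Ramp1 against both controls was 0.013 with array weights, 0.00348 with the replicate block and -0.053 to 0.036 without single arrays, against shGFP it was -0.16 and between the controls 0.012 with the median of the probe sets. Rgs4 against both controls ran from -0.53 to 0.068 without single arrays. Between the controls, Rgs17 was 0.013 with array weights and 0.040 with the letter block and ran from -0.12 to 0.040 without single arrays, and Tardbp was 0.00101 with array weights and -0.059 to 0.051 without single arrays. The cause of these changes was not tested.

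Whether same-numbered arrays are pairs was not decided. The correlation of their deviations ran from -0.056 to 0.263 over 8 pairs, 5 of them over 0.1. Arrays with different numbers were not compared, so these values have no reference. The replicate block gave 4699, 3937, 3962 and 1000 genes in the 4 comparisons, with 8, 4, 5 and 2 members past the threshold. With the median of the probe sets, 10 of 30 member levels moved by more than 1 SD.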

Other observations

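The array shTardbp 2, on which Rgs4 read 8.02, also stood apart from the other shTardbp arrays by at least 1 log2 unit in 14 further genes that were higher there. These values were looked up after Rgs4 had been seen. Pdk1, which slows the entry of pyruvate into the citric acid cycle, read 7.91 against at most 6.32 on the other shTardbp arrays, with means of 7.57 in shGFP and 6.19 in shLuciferase. Egln3, a prolyl hydroxylase of the oxygen-sensing pathway, read 9.76 against at most 8.60, with means of 10.8 in shGFP and 10.1 in shLuciferase. Bnip3, a mitophagy receptor, read 10.3 against at most 9.20, and Cox4i2, an isoform of a cytochrome c oxidase subunit, read 7.34 against at most 5.41. Selenbp1, a selenium-binding protein gene, read 8.13 against at most 5.82, above the means of both control groups (6.56 in shGFP and 5.19 in shLuciferase). Serpina1e read 5.73 against at most 3.74, with means of 3.61 in shGFP and 3.96 in shLuciferase. The rest were 4930583H14Rik, Olfr209, Magea9, Nxph4, Selenbp2, Amhr2, Stc1 and Dnajc17. Whether these genes share a function was not tested. Across the 10 RGS and RAMP genes, shTardbp 2 was the highest of the 4 shTardbp arrays for 6 and the lowest for Ramp3. Its lead over the next array ran from 0.032 for Calcrl to 1.25 for Rgs4. The share over all genes was not computed, so the count is a description.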
